A study of Mus musculus with 4 samples.

Results

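The cytosolic chaperonin CCT, also called TRiC, is built from 8 related subunits, and all 8 of their genes (Tcp1, Cct2, Cct3, Cct4, Cct5, Cct6a, Cct7 and Cct8) were found by symbol among the 12390 genes of the deposited table. CCT is a double-ring chamber that closes over unfolded proteins and uses ATP to fold them. Each ring holds 1 copy of each subunit, so the complex needs all of them, and its best known clients are actin and tubulin. Prefoldin hands these clients over to it, and phosducin-like proteins assist it.

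The libraries were made from hematopoietic stem cells of mouse bone marrow (sorted as Lin-, Sca-1+, c-Kit+, CD48-, CD150+), about 5000 cells per library, and amplified with the Smart-Seq V4 ultra low input chemistry. The 2 control libraries came from mice with floxed Ddx21 alleles (labelled WT; in the design text the allele is spelled Ddx211fl/fl), and the 2 knockout libraries from floxed mice that also carried CAG-CreERT2, a tamoxifen-activated Cre driven by a promoter active in nearly all tissues. All 4 libraries thus carried the floxed alleles, and Cre was present in the knockout libraries alone. The sources used here do not give age, sex, tamoxifen dosing or the time after it. Separate animals are not stated either, so p-values reflect only the spread among these 4 libraries, possibly a technical one. The design asks what loss of Ddx21, a nucleolar RNA helicase, changes in these cells.

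The libraries held between 43198649 and 62853208 recovered reads. Levels are in RPKM, reads scaled by transcript length and library depth. Ddx21 itself had 11.0 and 12.1 RPKM in control and 6.20 and 6.60 RPKM in knockout (log2 fold change -0.76, SE 0.30, adjusted p = 0.158, limma). It was called lower (adjusted p under 0.05) with voom on reads rescaled by a trimmed mean of log ratios (-1.22, adjusted p = 0.0330). With 1 library left out, the log2 fold change of Ddx21 lay between -0.83 and -0.69. The Ddx21 paralog Ddx50 had a log2 fold change of 0.38 (adjusted p = 0.385, limma). The p53 target Cdkn1a rose from 2.35 ± 0.359 to 47.9 ± 23.2 RPKM (SD, n = 2 per group). Of the stem cell markers 7 of 8 were in the table and tested, all with positive log2 fold changes and 2 of them called (adjusted p under 0.05 in limma). Neutrophil transcripts were abundant. All 10 late neutrophil genes fell, their summed level going from between 25562 and 25752 RPKM in the control libraries to between 9949 and 16164 RPKM in the knockout libraries, while 0.860% of all tested genes were called lower and 3.33% higher. All 5 granule genes of myeloid progenitors fell as well, and 5 of 7 tested stroma and endothelium genes rose. After rescaling 0 genes of the stem cell, neutrophil, granule and stroma lists were called. As over all genes, stem cell calls were fewer without control replicate 1, control replicate 2 or knockout replicate 2. They were more without knockout replicate 1. With control replicate 1, control replicate 2, knockout replicate 1 or knockout replicate 2 left out, the calls numbered 1, 3, 7 and 2 for the neutrophil list, 0, 0, 5 and 0 for the granule list and 4, 4, 7 and 5 for the stroma list. Of 8 erythroid genes 1 rose and 1 fell, of 10 mitosis genes 1 fell, of 3 tested B cell genes 0 were called, and the 1 tested T and NK cell gene, Nkg7, fell. No marker in the table stood at the mark for 0 reads in any library. In such bulk samples, fewer cells of a type and less RNA per cell cannot be told apart.

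The subunit genes lie on 8 different chromosomes of the mm10 build. Tcp1 (ENSMUSG00000068039), which encodes the alpha subunit, lies on chromosome 17 at 12915701 to 12925067. Cct2 (ENSMUSG00000034024), for the beta subunit, lies on chromosome 10 at 117051001 to 117063814, on the same chromosome as Ddx21 (62580251 to 62602281). Cct3 (ENSMUSG00000001416), for gamma, lies on chromosome 3 at 88297116 to 88321767, and Cct4 (ENSMUSG00000007739), for delta, on chromosome 11 at 22990519 to 23003780. Cct5 (ENSMUSG00000022234), for epsilon, lies on chromosome 15 at 31590800 to 31601804, and Cct6a (ENSMUSG00000029447), for zeta, on chromosome 5 at 129786998 to 129846371. Cct7 (ENSMUSG00000030007), for eta, lies on chromosome 6 at 85451514 to 85468475, and Cct8 (ENSMUSG00000025613), for theta, on chromosome 16 at 87483326 to 87495873. Tcp1, Cct3, Cct4, Cct6a and Cct7 are on the plus strand and the other three on the minus strand.

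RefSeq promoter windows (GRCm38.p6, the mm10 assembly; 250 bases before to 50 after a start site) matched 7 of the 8 genes, Cct4 being the exception, with 9 windows in all. Whether promoter letters bear on the levels that follow was not tested. The ETS-type letters CCGGAAG, searched on both strands, were found in 3 of the 9 subunit windows, against 8.86% of all 32851 windows. The match starts 18 bases before the start site in Cct2, 37 in Cct8 and 4 in Tcp1. The NRF1-type pattern, GCGCA then any base then GCGC, was found in 3 of the 9 windows (of Cct3 and Cct5), against 4.60% of all windows. In Cct3 it starts at both 169 and 220 bases before the start. Capitals mark the matched letters in these 30-base stretches, each 5′ to 3′ on the gene's own strand, where CTTCCGG is CCGGAAG read on the opposite strand.
Cct2 (chr10:117063852-117063881, minus strand): gagccgctacgCTTCCGGcccagcccgcca
Cct8 (chr16:87495888-87495917, minus strand): gggcggggcgaCCGGAAGtagggggacgcg
Tcp1 (chr17:12916314-12916343, plus strand): gcagccccctaCTTCCGGcgttttcagttt
Cct3 (chr3:88296956-88296985, plus strand): ccacgccagtGCGCAAGCGCttgcgtctcc
Cct3 (chr3:88296905-88296934, plus strand): ccgtgctttgGCGCTTGCGCagacattctg

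The GC box letters GGGCGG were in 8 of the 9 windows, against 35.7% of all windows, and in at least 1 window of all 7 matched genes. The CCAAT box letters were in 4 of the 9 windows (Cct3, Cct6a, Cct7 and Tcp1), against 37.4% of all windows. The heat shock element pattern GAANNTTC was found in 1 of the 9 windows (Cct2), against 7.86% of all windows. The E-box CACGTG and the TATA box TATAAA were found in none of the 9, against 7.15% and 13.6% of all windows. Each motif was searched by itself, and overlaps between motifs were not examined. A match is a run of letters and no measured binding site.

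The 8 subunit transcripts were abundant, from 101.8 to 402 RPKM, and kept their order of level in nearly every library. Cct5 was the highest, at 384 and 402 RPKM in control and 384 and 346 RPKM in knockout. Cct8 followed with 318 and 345 RPKM in control and 320 and 281 RPKM in knockout. In both genes knockout replicate 1 lay at or just above control replicate 1, and knockout replicate 2 lay lowest, so the groups overlapped. Cct6a stood at 227 and 248 RPKM in control and at 225 and 208 RPKM in knockout. Both of its knockout libraries lay below both controls, by little in replicate 1. Cct7 had 190 and 208 RPKM in control and 196 and 180 RPKM in knockout. Cct3 had 177 and 188 RPKM in control and 182 and 181 RPKM in knockout. The groups of these 2 genes overlapped, and the knockout values of Cct3 sat between its control values.

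The 3 genes at the lower end of the order, like Cct6a, had groups that lay apart in the deposited values. Cct4 stood at 164 and 167 RPKM in control and at 177 and 174 RPKM in knockout. Cct2 stood at 150.0 and 152 RPKM in control and at 163 and 157 RPKM in knockout. In both, the knockout libraries were above both controls by a margin small against the level. Tcp1 was the lowest, with 110.1 and 114 RPKM in control and 106 and 102 RPKM in knockout, so both knockout libraries were below both controls. Of the 7 neighbouring steps in this order, 6 held in all 4 libraries with no overlap in values. The exception was Cct7 and Cct3, which overlapped and changed places in knockout replicate 2. Control and knockout together, 4 of these steps were cleared by under 1 RPKM: Cct5 over Cct8 (346.1 against 345.4 RPKM), Cct6a over Cct7 (208.2 against 207.7), Cct3 over Cct4 (177.4 against 177.0) and Cct4 over Cct2 (164.1 against 163.3). The highest subunit stood 3.49 and 3.54 times above the lowest in the control libraries and 3.63 and 3.40 times in the knockout libraries.

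**Figure D1:**
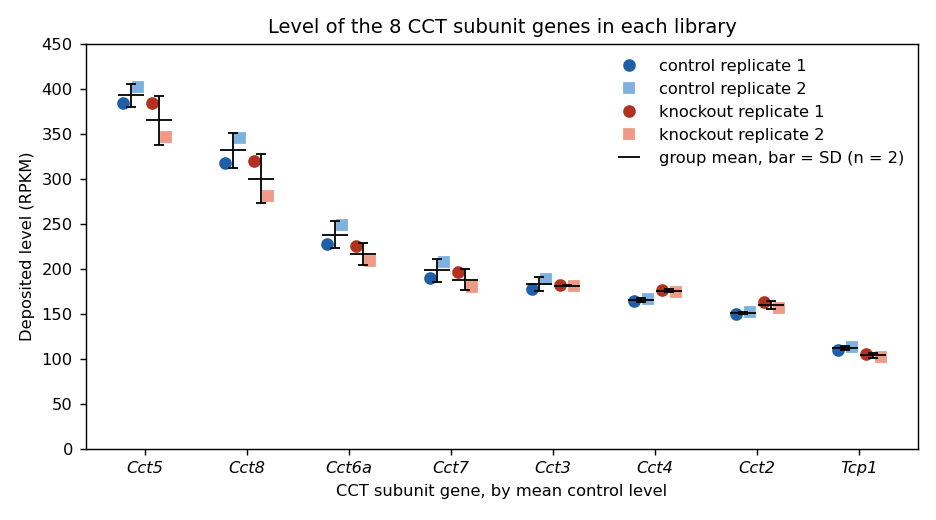
Deposited level in RPKM of each CCT subunit gene (horizontal axis, ordered by mean control level) in the 4 libraries, with black lines for group means and bars for the SD (n = 2). Cct5 lies highest and Tcp1 lowest in every library. For most neighbouring genes the points of the libraries, control and knockout together, nearly touch or overlap.

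These levels depend on the transcript length used to scale them. The deposited values are per kilobase of the longest transcript of each gene. With that length every subunit gave whole read numbers in all 4 libraries, the largest deviation being 0.00905 reads. For Tcp1, Cct3 and Cct7 the longest transcript in GENCODE M21 is a retained-intron form of 3419, 3335 and 3884 bases, while the principal coding transcripts have 2446, 1977 and 2441 bases. The coding lengths did not give whole reads in all libraries for these genes. Per coding transcript, the mean control level of Cct7 was 316 ± 20.3 RPKM (SD, n = 2) in place of 199 ± 12.8, that of Cct3 308 ± 13.2 in place of 183 ± 7.80, and that of Tcp1 156 ± 3.48 in place of 112 ± 2.49. On that scale Cct8, Cct7 and Cct3 lay within 332 to 308 RPKM and Cct4, Tcp1 and Cct2 within 166 to 151 RPKM. By mean coding-scale level, Tcp1 ranked above Cct2 in control and below it in knockout, and Cct3 ranked below Cct8 and Cct7 in control and above both in knockout. Cct6a has no transcript marked as coding in this annotation and was left out of this rescaled order. The difference between groups on a ratio scale does not depend on the length.

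**Figure D2:**
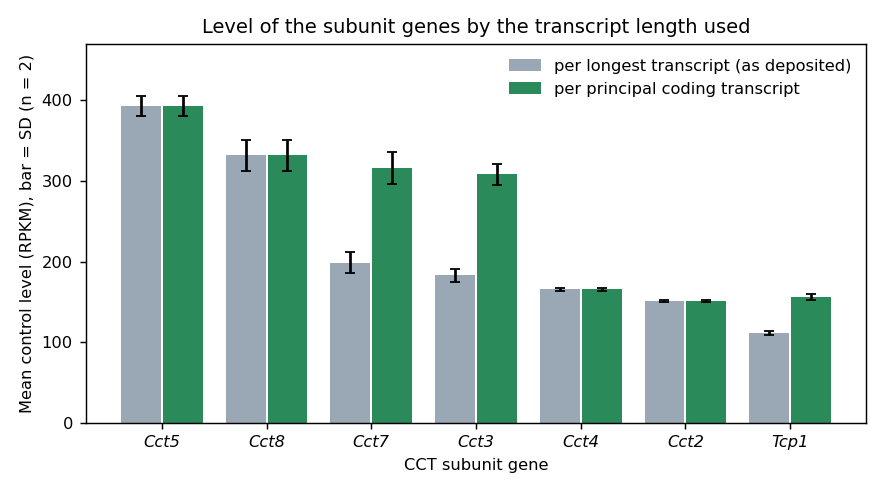
Mean control level in RPKM of 7 subunit genes (bars; error bars are SDs, n = 2) per kilobase of the longest transcript, as deposited, and per kilobase of the principal coding transcript. The 2 bars are equal for Cct5, Cct8, Cct4 and Cct2, and the coding-length bar is taller for Cct7, Cct3 and Tcp1.

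None of the 8 subunit genes was called different between knockout and control by limma with Benjamini-Hochberg adjustment over 11742 tested genes, at an adjusted p under 0.05. All 8 passed the filter on low values, a mean level of 1 RPKM or more. Over all tested genes 3.33% were called higher and 0.860% lower, 4.19% in either direction, so 0 of 8 is near the background. The log2 fold changes of the subunit genes, knockout minus control on the log2(RPKM + 1) scale, ran from -0.14 to 0.09, with a median of -0.09 against 0.31 for all tested genes. No subunit gene had an unadjusted p under 0.05.

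Cct8 had the lowest log2 fold change, -0.14 (SE 0.16, adjusted p = 0.565, limma), and its 95% interval ran from -0.46 to 0.17. Cct6a was at -0.13 (SE 0.17), Cct5 at -0.11 (SE 0.16) and Tcp1 at -0.11 (SE 0.18). Cct7 was at -0.08 (SE 0.17) and Cct3 at -0.011 (SE 0.17). Cct2 and Cct4 were both at 0.09 (SE 0.17). The widest reach of the 8 intervals was from -0.46 to 0.42 on the log2 scale. In this fit each gene's own spread is replaced by a trend over all genes. The subunit genes' own replicates lay closer together than that trend, with SEs from 0.02 for Cct4 to 0.11 for Cct8. Counting error was at most 0.863% of a value, from between 13423 and 52237 reads per gene and library, and covers counting alone.

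The groups did not overlap for Cct2 and Cct4, which were higher in both knockout libraries, and for Tcp1 and Cct6a, which were lower in both. Over all tested genes 55.5% lay higher and 7.38% lower without overlap, 62.9% in all. Against the control mean, the median of all tested genes was 0.50 on the log2 scale in knockout replicate 2 and 0.12 in knockout replicate 1. The median of the subunit genes was -0.02 in knockout replicate 1 and -0.14 in replicate 2. All 8 lay below the median of all genes in both knockout libraries. Between 9.60% (Cct8) and 22.6% (Cct4) of tested genes had a lower log2 fold change than the subunit gene. Genes of like level had a similar median: the 433 tested genes with a mean level inside the range of the 8 had a median log2 fold change of -0.05.

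The direction of some subunit genes turned with the scaling of the libraries. Rescaling by a trimmed mean of log ratios moved the median of all genes from 0.31 to 0.01, and all 8 subunit genes then had negative log2 fold changes, from -0.51 for Cct8 to -0.27 for Cct4, with a median of -0.45. Relative to the median of all genes the subunit median was -0.40 as deposited and -0.46 after rescaling. The 433 genes of like level had a median of -0.41 after rescaling, near that of the subunit genes. Cct2 and Cct4, higher as deposited, thus turned to lower. After rescaling 7 of the 8 lay lower in both knockout libraries without overlap, all but Cct2, where 26.9% of all tested genes lay lower, 27.8% higher and 54.7% in either direction. Rescaled Tcp1 values were 122 and 132 RPKM in control and 108 and 77.3 RPKM in knockout, replicate 2 being the lowest. The smallest adjusted p of a subunit gene was then 0.348 (Tcp1), in a setting where 0 genes in all were called, while an unadjusted p under 0.05 was reached by 947 upward and 893 downward. With voom on rescaled reads, which called 0.409% of genes higher and 0.162% lower (0.571% together), the smallest was 0.405 (Tcp1). Quantile normalization placed 5 of the 8 above 0, with a median of 0.02 and 3 of 8 below the median of all genes.

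**Figure D3:**
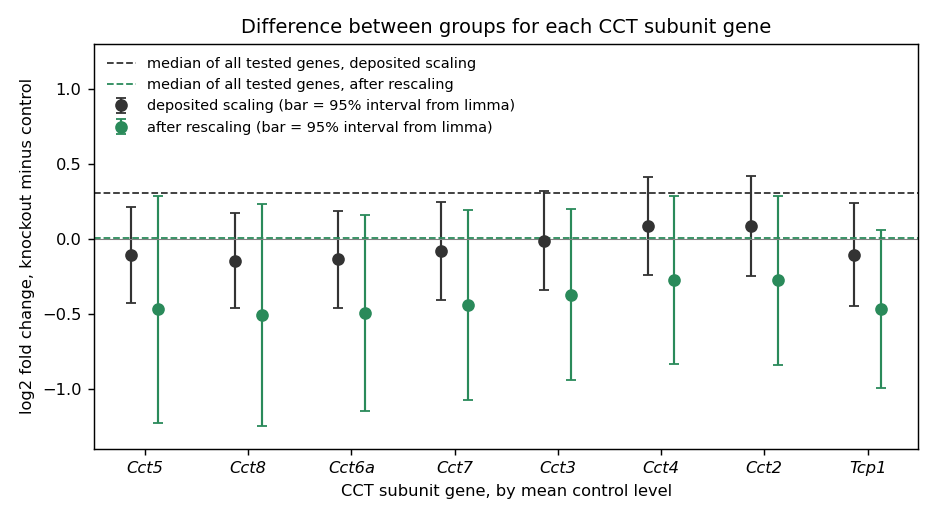
Log2 fold change, knockout minus control, of each CCT subunit gene in the deposited scaling (dark) and after rescaling (green), with 95% intervals from limma and dashed lines for the median of all 11742 tested genes. All points lie below the line of their own scaling, all 16 intervals reach across 0, and rescaling moves all 8 points down.

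The 8 genes together held 1721 and 1825 RPKM in control and 1754 and 1629 RPKM in knockout, which overlap (ratio of means 0.954). After rescaling the sums were 1910 and 2114 RPKM in control and 1795 and 1238 RPKM in knockout, which do not overlap (ratio 0.754). The 8 genes took 0.446% and 0.474% of recovered reads in control and 0.455% and 0.426% in knockout (ratio of means 0.957). Like deposited RPKM, this share follows library depth and is not rescaled. Shares among the 8 genes do not depend on how a library was scaled, but they do depend on the transcript lengths used. They add up to the whole, so a rise in some goes with a fall in others. Within their summed RPKM, Cct4 made up 9.54% and 9.15% in control and 10.09% and 10.7% in knockout. Cct2 made up 8.72% and 8.32% in control and 9.31% and 9.64% in knockout. Both were higher in both knockout libraries, by 1.05 and 0.955 percentage points of mean share, against pooled replicate SDs of 0.360 and 0.258. Cct8 moved the other way, from 18.5% and 18.9% in control to 18.2% and 17.2% in knockout, a difference of -0.969 percentage points against a replicate SD of 0.544. Cct6a went from 13.2% and 13.6% to 12.8% and 12.8%, a difference of -0.609 percentage points against a replicate SD of 0.203. Cct5 was also lower without overlap and Cct3 higher, each, like Cct8, by less than 2 replicate SDs, and Tcp1 and Cct7 overlapped. An exact permutation test of 2 against 2 libraries cannot give a two-sided p below 0.333, and no test of the shares was run. With 1 library left out the difference of Cct3 ranged from 0.0626 to 0.774 percentage points, and that of Cct7 from -0.261 to 0.101, changing sign without control replicate 2.

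**Figure D4:**
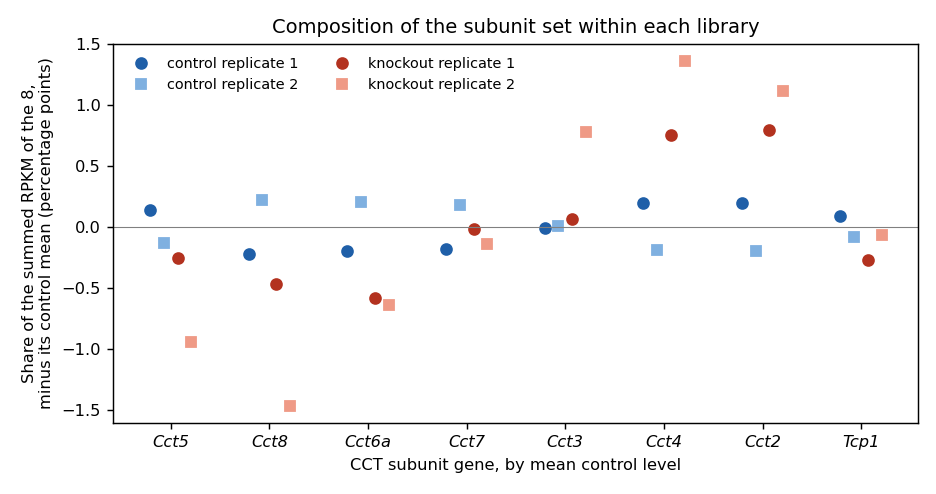
Share of each subunit gene in the summed RPKM of the 8, minus its control mean, in percentage points, in the 4 libraries. Cct4 and Cct2 lie above both controls in both knockout libraries, while Cct8, Cct6a and Cct5 lie below.

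Several genes adjoin or overlap the subunit genes, and without a stated strand setting reads in the overlaps cannot be assigned. Mrpl18, a mitochondrial ribosomal protein gene, starts head to head with Tcp1 and overlaps it by 645 bases. It stood at 52.5 and 48.2 RPKM in control and 54.5 and 53.2 RPKM in knockout (log2 fold change 0.09, adjusted p = 0.740, limma). Pradc1 overlaps Cct7 by 457 bases with a log2 fold change of 0.31, and Psph, a serine synthesis enzyme gene, overlaps Cct6a by 452 bases with 0.24. Neither was called, and all 3 turned negative after rescaling. Tcp1 and Cct6a also host snoRNA genes in their introns, Snora20 and Snora15 among them. Processed pseudogenes that cover at least 50% of the mRNA are annotated for Cct3 (3 copies, the closest Cct3-ps1 at 91.4% identity), Tcp1 (1, at 87.2%) and Cct4 (1, at 89.6%). They add an uncertainty to single values of these 3 genes, and whether reads were shared with the copies was not tested.

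The proteins that work with CCT were looked up next. None of the 6 prefoldin subunit genes was called, and their log2 fold changes ran from 0.06 (Vbp1) to 0.37 (Pfdn2), with a median of 0.21, above that of the CCT genes and below that of all genes. Pfdn1 stood at 43.6 and 43.2 RPKM in control and at 51.6 and 56.9 RPKM in knockout (log2 fold change 0.31, adjusted p = 0.385, limma), and Pfdn5 was at 0.22. The summed prefoldin level was 0.150 and 0.135 of the summed CCT level in control and 0.156 and 0.186 in knockout, which does not overlap. This ratio was formed after the values were seen, and how many of all genes rise in the same way against CCT was not counted. The median log2 fold change of the CCT genes was itself -0.40 relative to that of all genes. Both Pfdn1 and Pfdn5 turned negative after rescaling. The 3 phosducin-like cofactor genes were not called either, with 0.45 for Pdcl, 0.31 for Pdcl3 and 0.08 for Txndc9, and Pdcl3 and Txndc9 turned negative after rescaling.

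In the list of the prefoldin-like and R2TP complex, which assembles RNA polymerases and other large complexes, 1 of 8 genes rose and 0 fell, with a median of 0.35, against 3.33% of all genes called higher. The gene that rose was Pdrg1, a prefoldin-like subunit, from 59.1 and 58.7 RPKM in control to 85.5 and 110.3 RPKM in knockout (log2 fold change 0.71, SE 0.18, adjusted p = 0.00502, limma). Both knockout libraries lay well above the controls. The call was lost after rescaling (0.35, adjusted p = 0.317) and when control replicate 1, control replicate 2 or knockout replicate 2 was left out (adjusted p = 0.931, 0.957 and 0.134). Polr2e (0.42) and Rpap3 (0.45) came next and were not called. Of the 3 tested CCT-related genes (5 listed), Mkks (0.63), Bbs10 (0.39) and Bbs12 (0.36), which act in assembly of the BBSome of cilia, none was called, and the highest value of any was 3.81 RPKM.

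Actin and tubulin are the main clients. Of 11 tested actin and tubulin genes (13 listed) 5 fell and 0 rose, with a median log2 fold change of -0.38, against 0.860% of all genes called lower. Calls downward were more frequent among abundant genes: of the 433 tested genes in the level range of the CCT genes, 27 were called lower and 18 higher. No such set was matched to the levels of the actin and tubulin genes. Tuba4a went from 1094 and 1197 RPKM in control to 665 and 534 RPKM in knockout (log2 fold change -0.94, SE 0.16, adjusted p = 1.28e-06, limma). Tuba1c fell by 0.71 and Tuba1a by 0.635 on the log2 scale. Actg1, cytoplasmic gamma actin, fell from 926 and 1004 RPKM to 742 and 609 RPKM (-0.52, adjusted p = 0.0364), and Tuba1b by 0.50. In each of these 5 genes, picked by their calls, both knockout libraries lay below both controls, as in 7.38% of all tested genes. Actb, cytoplasmic beta actin and the most abundant client, had 8400 and 9181 RPKM in control and 7074 and 6468 RPKM in knockout, not past the threshold (-0.38, adjusted p = 0.305). Tubb6, at 0.998 (adjusted p = 0.0599, limma), and Tubg1, at 0.14, had positive log2 fold changes, and after rescaling Tubb6 was at 0.69 and Tubg1 at -0.21. Tubulin genes are close copies of each other, so their separate values are uncertain.

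Summed over the list, actin and tubulin transcripts stood at 8.21 and 8.55 times the summed CCT level in control and 6.62 and 6.36 times in knockout. The groups do not overlap in this ratio, which is free of library scaling, and it was formed after the values were seen. For the 9 tubulin genes alone it was 2.79 and 2.97 in control against 2.16 and 2.01 in knockout, and for the 2 actin genes 5.42 and 5.58 against 4.46 and 4.34. As over all genes, calls in this list were fewer without control replicate 1, control replicate 2 or knockout replicate 2. They were more without knockout replicate 1. After rescaling 0 were called, and 10 of the 11 log2 fold changes were negative. The fall of the late neutrophil and granule genes moved with it, and its part in these values was not tested.

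Other clients were looked up too. Of 13 genes for WD40 and other clients 0 were called, with a median of 0.34. Gnb4, a G protein beta subunit, was at 0.74, Wrap53, a telomerase cofactor, at 0.44, and Stat3 at 0.34, the last of which was -0.013 after rescaling. None of the 6 tubulin folding cofactor genes, which take tubulin from CCT and pair it into dimers, was called either, and Tbca (0.43), Tbce (0.47) and Tbcd (0.36) had the smallest p-values.

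**Figure D5:**
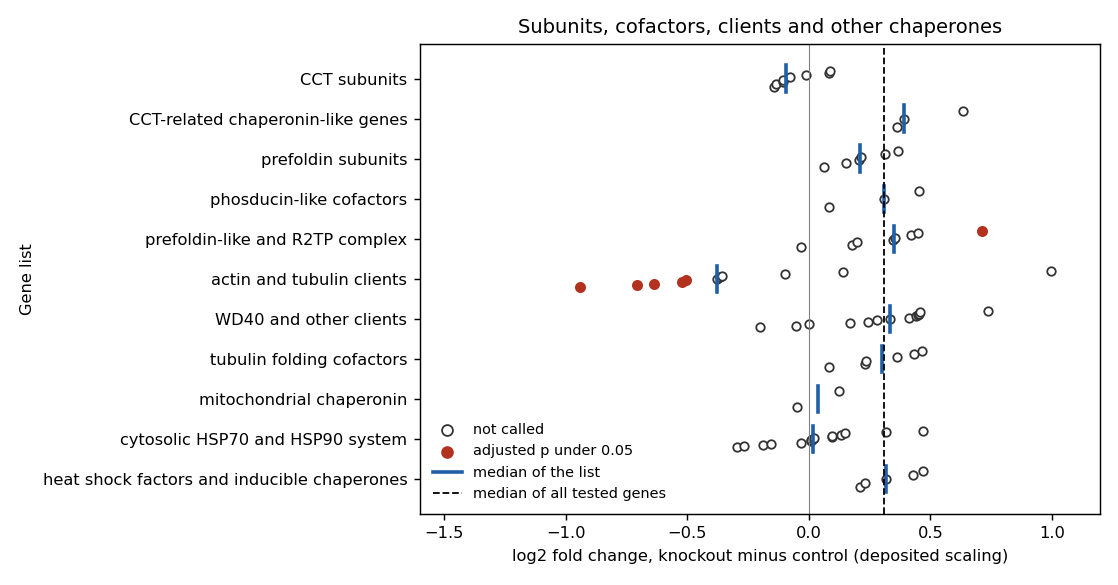
Log2 fold change in the deposited scaling of each tested gene in the CCT list and in 10 lists of cofactors, clients and other chaperones. Filled points passed an adjusted p under 0.05, blue bars are list medians and the dashed line is the median of all tested genes at 0.31. Filled points occur in the actin and tubulin list, where 5 are lower, and in the R2TP list, where 1 is higher.

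The other chaperones were compared last. The mitochondrial chaperonin genes Hspd1 (-0.05) and Hspe1 (0.12), which encode HSP60, a distant relative of CCT, and its lid HSP10, were not called. Of 15 genes of the cytosolic HSP70 and HSP90 system 0 were called, with a median of 0.02 and 13 of 15 below the median of all genes. Hspa8, the constitutive HSP70, stood at 1561 and 1825 RPKM in control and at 1619 and 1166 RPKM in knockout (-0.30, adjusted p = 0.347, limma), low in knockout replicate 2 alone. Ptges3, the HSP90 cochaperone p23, was at -0.27 and Dnajb1, an inducible HSP40, at 0.47 (adjusted p = 0.213). Of the 5 tested heat shock factor and inducible chaperone genes 0 were called. Hsf1, the factor that switches on heat shock genes, was at 0.43 and Hsph1 at 0.32. With knockout replicate 1 left out, the median log2 fold change of the CCT genes was -0.14, against 0.50 for all tested genes.

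Among 4147 genes averaging 10 RPKM or more, the profiles over the 4 libraries most like the mean profile of the subunit genes were those of Cacybp, Cdk4 and Uqcr10. Likeness was the Euclidean distance between centred log2(RPKM + 1) profiles, which was 0.0315, 0.0322 and 0.0338 in that order and between 0.0513 (Cct7) and 0.150 (Cct4) for the subunit genes themselves. Cacybp had 111 and 117 RPKM in control and 111 and 107 RPKM in knockout. Over only 4 libraries this distance is a description.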

How the data were processed

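The authors deposited 1 table of RPKM values per gene and library. No header names the unit, which was identified from the values: value times longest GENCODE M21 transcript length gave whole reads, within 0.1, for 99.4% of values in each library. Per the submitters' processing notes, reads were placed on mm10. The sources used here name no strand setting and no handling of multimapping reads, and the aligner and counter are not given there. Symbols and lengths were found for 12381 of 12390 gene IDs. The value 0.001 marks 0 reads. Every gene reaches at least 1.0063 RPKM in some library, so the table holds no gene that is low throughout.

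Log2(RPKM + 1) values of genes averaging 1 RPKM or more were fitted with limma 3.58.1 (R 4.3.3), its trend option on, with genotype as sole term (2 residual degrees of freedom) and Benjamini-Hochberg adjustment. On simulated data the fit gave every changed gene its right sign, but its share of false calls was above the nominal rate. The prior degrees of freedom were infinite, so each gene's spread came from the trend. Replicates of 1 group differed by more than sampling noise (chi-square per degree of freedom 48.9 and 152). Pseudogene copies were searched with blastn 2.17.0. The members and lists were chosen with earlier results of these data known. Named genes were the subunits, Ddx21, Ddx50, Cdkn1a, up to 3 genes with the smallest p per pathway list, and 3 nearest profiles; other genes were chosen after their values were seen. Alternatives were another pseudocount, no filter, rescaling, quantile normalization, voom, a replicate block and leaving out each library. The length comparison was added after seeing the data.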

Additional observations from a re-analysis of the deposited data

How the results depend on the processing

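No setting called any of the 8 CCT genes. Their median log2 fold change, -0.09, was -0.45 after rescaling, 0.024 with quantile normalization and -0.42 with voom. Without 1 library it lay between -0.14 and -0.02. All genes called numbered 391 higher and 101 lower, then 0 and 0 after rescaling or quantile normalization (869 and 879 at an unadjusted p under 0.05 in limma for the latter) and 48 and 19 with voom. Leaving out control replicate 1 gave 33 and 5, leaving out control replicate 2 gave 27 and 10. Leaving out knockout replicate 1 gave 6375 and 530, and for knockout replicate 2 it was 98 and 14. The lone library is then assumed to vary like the other group. The replicate block, the number in the titles as a term, gave 175 and 64, and 2 called actin and tubulin genes in place of 5. Same-numbered libraries deviated together with a correlation of 0.067 over 2 pairs, so the numbers are not shown to pair samples.

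Subunit signs turned for Cct2 (-0.28 after rescaling, -0.24 with voom), Cct4 (-0.27, -0.25), and, with quantile normalization, Cct3 (0.029), Cct5 (0.018) and Cct8 (0.038). With 1 library left out, Cct3 lay between -0.055 and 0.032, Hspd1 between -0.13 and 0.031 and Txndc9 between -0.018 and 0.18, turning without control replicate 2 (Cct3, 0.032; Hspd1, 0.010) or knockout replicate 2 (Hspd1, Txndc9). Rescaling and voom turned Hspe1 (-0.24, -0.20), Hsph1 (-0.013, -0.0099), Pdcl3 (-0.010, -0.0099), Pfdn1 (-0.042, -0.036), Pfdn5 (-0.14, -0.13), Stat3 (-0.013, -0.013) and Txndc9 (-0.26, -0.27). Quantile normalization turned Hspd1 (0.0080), Hsph1 (-0.035), Pdcl3 (-0.038) and Txndc9 (-0.20). The cause was not tested.

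Called actin and tubulin genes numbered 0 after rescaling, quantile normalization or voom and between 0 and 9 without 1 library; R2TP genes 0 under the former 3 and between 0 and 5. Without 1 library the other lists ranged from 0 to 3 (CCT-related; HSP70 and HSP90), 0 to 9 (WD40 and other clients), 0 to 4 (tubulin cofactors) and 0 to 2 (prefoldin, phosducin-like, heat shock). Depth was not limiting for the subunit genes.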
